A study of Mus musculus with 8 samples.

Results

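The genes of the mouse major histocompatibility complex (MHC, named H2 in the mouse) and the genes that load its molecules with peptide were followed in UVB-irradiated skin that had been treated with enalapril or with its vehicle. The array probes were chosen by the gene name in the scanner files: every name starting with H2-, and Cd74, Ciita, B2m, Tap1, Tap2 and Tapbp. This gave 63 probes with 41 gene names, of 41174 probes with 27961 names in all. They comprised 5 classical class I probes (H2-K1 and H2-D1), 33 non-classical class I probes, 16 class II probes, 7 processing probes (B2m, Tap1, Tap2 and Tapbp) and 2 probes, H2-Ke2 and H2-Ke6, for genes that lie in the complex and encode no MHC molecule.

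The mice were male, 19 weeks old and of the hairless SKH-1 strain, and RNA of the dorsal skin was measured, with 1 mouse per array and 4 mice per group. In all of them the back had been exposed to UVB for 10 weeks. From 1 week after the end of exposure, the enalapril group received enalapril maleate, 1% w/v in 30 vol % ethanol, on the back for 2 weeks with 5 applications a week, and the vehicle group received 30 vol % ethanol on the same schedule (6 weeks and 6 mice are also named in the description of the series). Enalapril blocks the enzyme that makes angiotensin II. No skin without irradiation or without ethanol was among the 8 arrays, so that both groups share the irradiation and the solvent.

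MHC class I molecules are made by nearly all nucleated cells and show CD8 T cells peptides cut from proteins inside the cell. The heavy chain pairs with beta-2 microglobulin and is loaded in the endoplasmic reticulum with peptides that the TAP transporter brings in, while tapasin holds the 2 together. Class II molecules show CD4 T cells peptides from endosomes and are made mainly by dendritic cells, macrophages and B cells, which in skin include the Langerhans cells of the epidermis; interferon-gamma raises both classes.

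The promoters of 5 member genes are shown: H2-K1 and H2-D1 of class I, H2-Aa and H2-Eb1 of class II, and H2-Ke6, which encodes no MHC molecule. They show where some letters known from MHC promoters stand. Each is the 250 bases before a start annotated in RefSeq (GRCm38.p6), 5′ to 3′ on the gene's strand. Where a gene had several starts, the last one listed is printed. Capitals mark GGGATTCC (part of enhancer A, an NF-kappaB element) and TTTCACTT (part of the interferon response element). They also mark GATTGG (the core of the Y box) and AGCAAC (the core of the X box). Each was searched on both strands, so that CCAATC is GATTGG read on the opposite strand. Capitals mark the letters alone, and whether a match is the box itself was not tested.
H2-K1, chr17:34000334-34000583, minus strand: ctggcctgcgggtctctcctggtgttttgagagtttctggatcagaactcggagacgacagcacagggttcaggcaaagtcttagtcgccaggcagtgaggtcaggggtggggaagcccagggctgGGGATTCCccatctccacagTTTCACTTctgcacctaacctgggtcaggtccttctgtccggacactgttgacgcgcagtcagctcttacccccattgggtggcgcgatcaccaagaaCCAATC
H2-D1, chr17:35262844-35263093, plus strand: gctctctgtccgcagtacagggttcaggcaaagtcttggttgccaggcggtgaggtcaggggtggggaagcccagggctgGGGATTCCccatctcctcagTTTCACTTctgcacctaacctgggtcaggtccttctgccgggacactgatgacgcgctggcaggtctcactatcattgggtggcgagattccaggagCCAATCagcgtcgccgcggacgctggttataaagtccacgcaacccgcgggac
H2-Aa, chr17:34287824-34288073, minus strand: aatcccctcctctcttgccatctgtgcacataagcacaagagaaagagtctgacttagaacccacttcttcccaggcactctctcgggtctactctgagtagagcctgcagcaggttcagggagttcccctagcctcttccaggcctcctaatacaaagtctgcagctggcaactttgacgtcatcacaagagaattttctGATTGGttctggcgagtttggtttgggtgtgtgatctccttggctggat
H2-Eb1, chr17:34305617-34305866, plus strand: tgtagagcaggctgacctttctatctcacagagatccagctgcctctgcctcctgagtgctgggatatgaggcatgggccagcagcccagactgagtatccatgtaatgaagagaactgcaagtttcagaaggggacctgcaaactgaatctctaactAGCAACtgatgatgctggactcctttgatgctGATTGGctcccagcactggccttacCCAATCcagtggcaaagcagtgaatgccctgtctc
H2-Ke6, chr17:34028056-34028305, minus strand: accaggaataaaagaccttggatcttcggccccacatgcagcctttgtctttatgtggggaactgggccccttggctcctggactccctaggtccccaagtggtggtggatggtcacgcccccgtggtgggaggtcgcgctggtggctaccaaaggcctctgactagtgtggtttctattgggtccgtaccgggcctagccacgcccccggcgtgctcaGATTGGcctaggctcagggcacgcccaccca

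Enhancer A and the interferon response letters stood side by side in H2-K1 and H2-D1, the 2 classical class I genes. Of 32851 promoters of this length in the RefSeq table, 0.889% held GGGATTCC and 1.36% held TTTCACTT, in either direction. A promoter was at hand for 30 of the 41 member names, Cd74 not included. A member gene was counted if the promoter of any of its starts held the letters. The shares of all promoters count every promoter singly, so a gene with several starts had more chances and the measures are not alike. GGGATTCC was also found for 1 of 16 non-classical genes (H2-Q7) and TTTCACTT for 5 of them (H2-M3, H2-Q10, H2-Q7, H2-T22 and H2-T3). Neither was found for any of 7 class II genes. GATTGG was found for 7 of 7 class II, 12 of 16 non-classical and 2 of 2 classical genes, beside 14.6% of all single promoters. AGCAAC was found for 3 of 7 class II genes (H2-Eb1, H2-Oa and H2-Ob), beside 12.2% of all single promoters, and for no class I gene. Only these exact letters were searched, so a variant of a box was not counted. A missing match does not show that a box is absent. The letters describe the windows and do not show that a factor was bound in this skin.

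Intensities are given as levels, that is log2 of the processed intensity minus log2 of the 75th percentile of the same array, and a change is the enalapril mean minus the vehicle mean of these levels. Testing needed a signal flagged as well above background on 4 or more of the 8 arrays, and a change was called at an adjusted p under 0.05 by limma over all 28586 probes tested. The share of spots with such a flag was 67.1% to 72.7%, no spot was saturated, and the 75th percentile of the intensity ranged from 821.5 to 1540. The enalapril arrays shared slide 2 and scan 2 and the vehicle arrays slide 1 and scan 1, so a difference between slides and one between treatments cannot be told apart. Probe sequences were not used here, and the class I genes are near-identical in places; which of them a probe bound was not tested.

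Of the 63 member probes, 53 with 32 gene names passed the filter and 10 were not well above background on any array. The dark probes were those of H2-Ea, H2-M1, H2-M10.1, H2-M10.3, H2-M10.4, H2-M10.5, H2-M10.6, H2-M11 and H2-T3, and A_52_P246277, a probe under the name H2-D1 whose description in the files names the thymus leukemia antigen. H2-Ea encodes the alpha chain of the class II E molecule, and its partner H2-Eb1, the beta chain, was well above background on all 8 arrays. Thus the probes for 1 chain of the E molecule were measured and those for the other were not well above background in either group.

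Among the probes under the chosen names, no MHC molecule and no processing gene passed the test. Probes under other names, described as MHC or as similar to it, are given among the closing observations, where some were called. H2-Ke6 alone was called among the members, lower in enalapril skin, so that 1 of 53 member probes was called (1.89%) against 10.4% of all probes tested. The 2981 probes called over the whole array were 1091 higher (3.82%) and 1890 lower (6.61%); quantile normalization gave 978 higher and 1121 lower, and the deposited log2 values, which are not scaled between arrays, gave 77 and 1473. At an unadjusted p under 0.05 by limma the members counted 13 of 53 (24.5%), against 29.4% of all probes. With quantile normalization 4 of 53 member probes were called higher and 1 lower. There 22 of 53 members had an unadjusted p under 0.05 by limma, against 7943 of 28586 probes. Whether members had a lower share than all probes thus depended on the scaling. The groups did not overlap at 6 of 53 member probes (11.3%), against 20.2% of all.

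The intervals of the changes describe the difference between the groups under the main processing. Each group had its own slide and scan, so the intervals cover slide and treatment together and set no bound on the effect of enalapril alone. The choice of processing is not part of the intervals either. The median change of the classical probes was 0.28 with quantile normalization and -0.27 with the deposited unscaled log2 values. For 51 of the 53 member probes the 95% interval of limma, not adjusted for the number of probes, lay within a 2-fold change in either direction, and for 34 it lay within 1.5-fold. The 2 exceptions to the 2-fold bound, H2-M9 and the H2-Bl probe A_51_P247114, had their lower ends at -1.21 and -1.13. The median change was -0.03 over the 53 member probes and -0.05 over all probes tested.

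**Figure D1:**
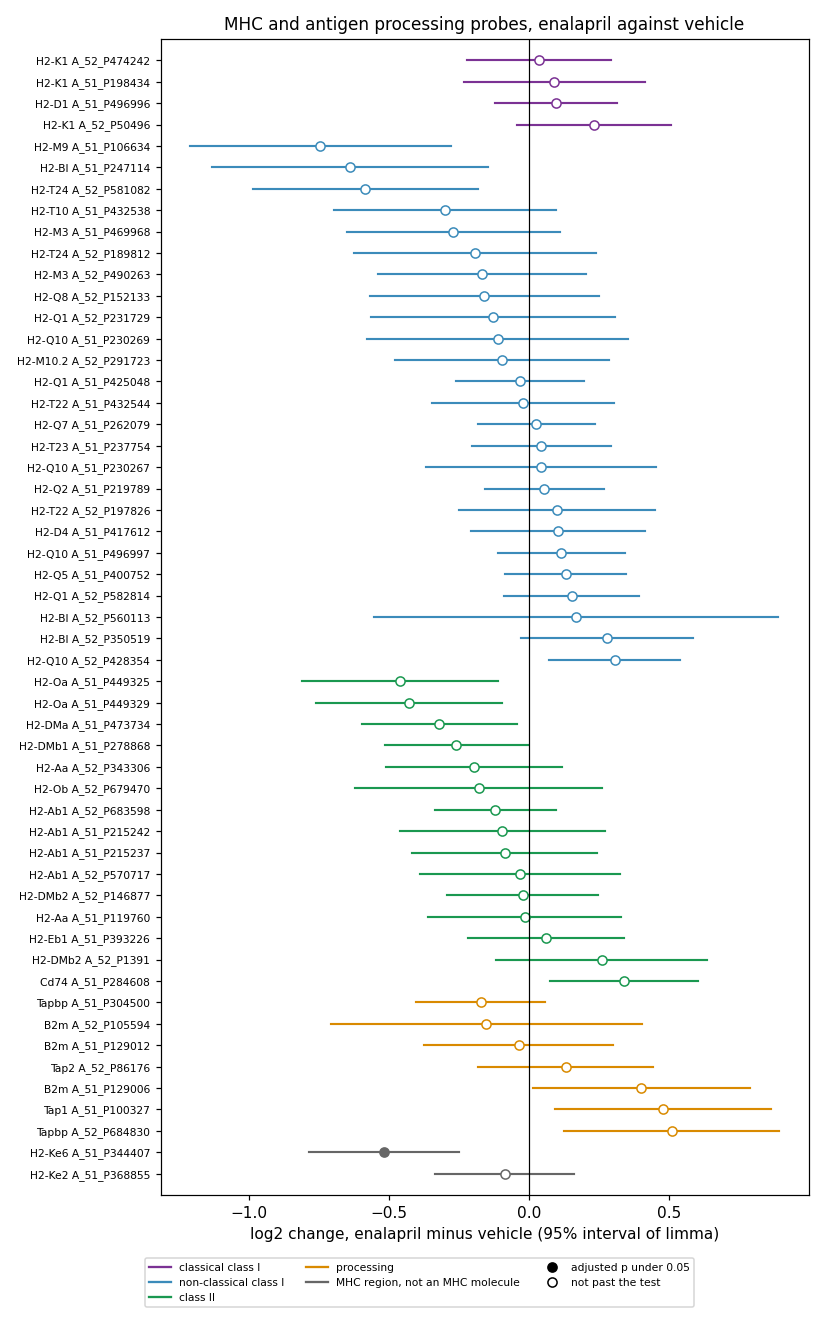
Log2 change (enalapril minus vehicle) of the 53 member probes tested, as points with the 95% interval of limma from 4 arrays per group; colours give the class and filled points an adjusted p under 0.05. H2-Ke6 is the 1 filled point, at -0.52, and most intervals cross 0.

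None of the 4 tested probes of H2-K1 and H2-D1 passed the test, and their intervals lay within a 1.5-fold change. H2-K1, 1 of the 2 heavy chains that show peptides to CD8 T cells, had levels of 7.65, 7.71, 7.66 and 7.90 on enalapril arrays 1 to 4, against 7.76, 7.46, 7.40 and 7.94 on vehicle arrays 1 to 4 (A_51_P198434). The 4 enalapril values lay inside the range of the vehicle values, and the change was 0.09 ± 0.14 (limma's SE, n = 4 each; limma adjusted p = 0.711), with an interval from -0.23 to 0.41. The other H2-K1 probes changed by 0.03 and 0.23, with limma adjusted p-values of 0.868 and 0.238.

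H2-D1, the other classical heavy chain, had levels of 6.87, 6.94, 6.94 and 7.09 in enalapril skin, against 6.88, 6.74, 6.88 and 6.95 in vehicle skin (A_51_P496996). The groups overlapped, and the change was 0.10 ± 0.10 (limma adjusted p = 0.538). All 4 classical probes had changes above 0, and their median of 0.09 turned to -0.11 with normexp background correction and to -0.27 with the deposited unscaled log2 values. The median change of all probes was 0.27 with normexp, above that of the classical probes, and -0.41 with the deposited values, below it.

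Non-classical class I genes, encoded in the Q, T and M regions, mostly have narrower expression than the classical genes and roles other than peptide display to conventional CD8 T cells. Of their 25 tested probes, 12 had changes above 0 and 13 below, with a range of -0.74 to 0.31 and a median of -0.02, which turned to 0.17 with quantile normalization. None was called. H2-T23 encodes Qa-1, which presents leader peptides of class I chains to NK cell receptors; its change was 0.04 ± 0.11, with 6.95 ± 0.08 in enalapril skin and 6.91 ± 0.16 in vehicle skin (SD, n = 4 each).

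Of the Q region, H2-Q7 (a Qa-2 gene) changed by 0.03 ± 0.09, H2-Q2 by 0.05 ± 0.09, H2-Q5 by 0.13 ± 0.09 and H2-Q8 by -0.16 ± 0.18. H2-Q10, known in the mouse as a secreted class I molecule of the liver, had 4 tested probes whose changes ran from -0.11 to 0.31. The probe A_52_P428354 had levels of 4.49, 4.55, 4.53 and 4.72 in enalapril skin, against 4.42, 4.19, 4.30 and 4.16 in vehicle skin. Every enalapril value lay above every vehicle value, by a margin that did not pass the test (change 0.31 ± 0.10, limma adjusted p = 0.0916). The brighter H2-Q10 probe A_51_P496997 changed by 0.12 ± 0.10 and its groups overlapped. H2-Q1 had changes of 0.15, -0.03 and -0.13 at its 3 probes.

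Of the T region, H2-T22 and H2-T10, which gamma-delta T cells recognise without a bound peptide, changed by -0.02 and 0.10 (2 probes of H2-T22) and by -0.30 (H2-T10), with limma adjusted p-values of 0.935, 0.706 and 0.287. H2-T24 had levels of -4.15, -3.81, -4.59 and -4.10 in enalapril skin, against -3.35, -3.49, -3.76 and -3.73 in vehicle skin (A_52_P581082). These groups did not overlap, yet the change of -0.58 ± 0.18 missed the threshold (limma adjusted p = 0.0692). The other H2-T24 probe changed by -0.19 ± 0.19 and overlapped. The change of A_52_P581082 was 0.40 with normexp background correction and -0.18 with normexp after very high local backgrounds were set to the array median.

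Of the M region, H2-M3, which presents N-formylated peptides of bacteria and mitochondria, changed by -0.27 ± 0.17 and -0.17 ± 0.16 at its 2 probes, and H2-M10.2 by -0.10 ± 0.17. H2-M9 had levels of -5.95, -5.54, -5.53 and -4.93 in enalapril skin, against -4.84, -4.70, -4.89 and -4.54 in vehicle skin (A_51_P106634). Every enalapril value was the lower, enalapril 4 by the least, and the change was -0.74 ± 0.20 (limma adjusted p = 0.0522). It was 0.66 with normexp background correction and 0.00 with that same repair, so that its direction rests on how the background of this dim probe was treated. H2-M9 passed when probes had to be well above background on all 8 arrays (limma adjusted p = 0.0443) or when enalapril 4 was left out (0.00638). Without enalapril 4, 3213 probes over the whole array were called higher and 3781 lower.

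H2-D4 changed by 0.10 ± 0.14. H2-Bl had changes of 0.28, -0.64 and 0.17 at its 3 probes, with limma adjusted p-values of 0.208, 0.0925 and 0.764. These 3 probes cite the same transcript accession and did not share a direction.

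**Figure D2:**
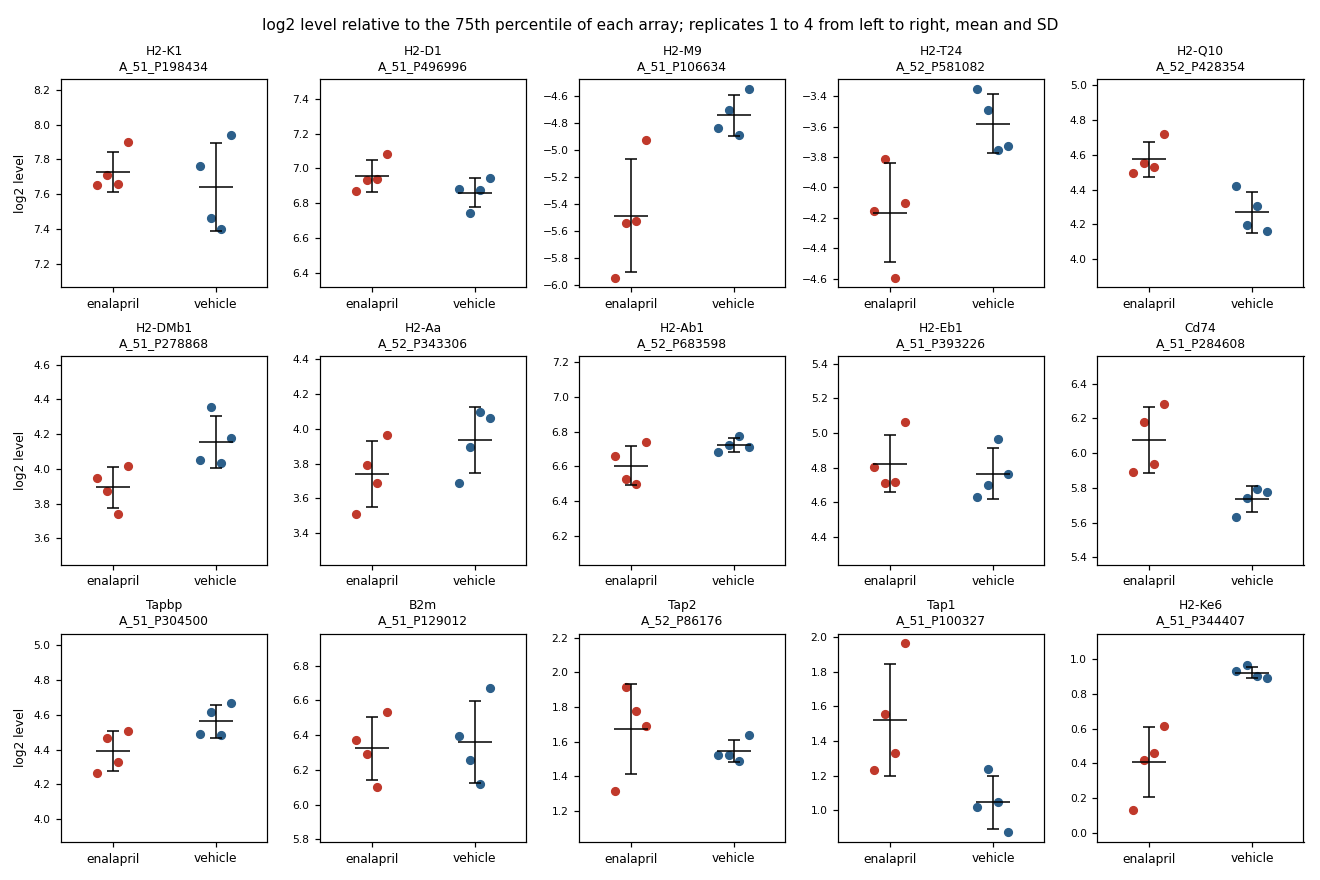
Levels (log2 relative to the 75th percentile of each array) of 15 member probes in enalapril skin (red, left) and vehicle skin (blue, right), with replicates 1 to 4 from left to right within each group and bars for the mean and SD. The groups do not overlap for H2-M9, H2-T24, H2-Q10, H2-DMb1, Cd74 and H2-Ke6, while those of H2-K1, H2-D1, H2-Aa, H2-Ab1, H2-Eb1, B2m, Tap1, Tap2 and Tapbp do.

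Class II genes had no called probe, and 12 of their 15 tested changes were below 0 with a median of -0.10, which turned to 0.064 with quantile normalization. H2-Ab1, the beta chain of the A molecule, had levels of 6.66, 6.52, 6.50 and 6.74 in enalapril skin, against 6.68, 6.73, 6.78 and 6.71 in vehicle skin (A_52_P683598). Enalapril 4 lay inside the vehicle range and the other 3 below it, and the change was -0.12 ± 0.09 (limma adjusted p = 0.433). The other 3 H2-Ab1 probes changed by -0.03 to -0.10.

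H2-Aa, the alpha chain of the A molecule, had levels of 3.51, 3.79, 3.69 and 3.97 in enalapril skin, against 3.69, 3.89, 4.10 and 4.07 in vehicle skin (A_52_P343306). The groups overlapped, with a change of -0.20 ± 0.14 (limma adjusted p = 0.373). H2-Eb1, the beta chain of the E molecule, had levels of 4.80, 4.71, 4.72 and 5.06 in enalapril skin, against 4.63, 4.70, 4.97 and 4.76 in vehicle skin. Its change of 0.06 ± 0.12 was the only one above 0 among the 7 tested probes of the A and E chains (limma adjusted p = 0.786).

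Cd74, the invariant chain that guides class II molecules to endosomes and blocks their groove, had a change above 0, as 2 other class II probes did. Its levels were 5.89, 6.18, 5.94 and 6.28 in enalapril skin, against 5.63, 5.74, 5.79 and 5.77 in vehicle skin. All 4 enalapril values were above all vehicle values, and the change of 0.34 ± 0.12 did not pass the test (limma adjusted p = 0.0958). It was 0.57 and passed with quantile normalization (limma adjusted p = 0.0247), and was -0.03 with the deposited unscaled log2 values.

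H2-DM removes the invariant chain fragment and edits the peptides of class II molecules, and H2-O inhibits H2-DM. H2-DMb1 had levels of 3.95, 3.87, 3.74 and 4.02 in enalapril skin, against 4.05, 4.35, 4.03 and 4.18 in vehicle skin. The groups did not overlap, by a margin smaller than their SDs of 0.12 and 0.15, and the change was -0.26 ± 0.11 (limma adjusted p = 0.165). H2-DMa changed by -0.32 ± 0.12 (limma adjusted p = 0.122), with 1.23 ± 0.20 in enalapril skin and 1.55 ± 0.08 in vehicle skin (SD, n = 4 each), and H2-DMb2 by -0.02 and 0.26 at its 2 probes.

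H2-Oa had like changes at both of its probes, -0.46 ± 0.15 and -0.43 ± 0.15, with limma adjusted p-values of 0.0886 and 0.0931. H2-Ob changed by -0.18 ± 0.19. Without enalapril 4, both H2-Oa probes (limma adjusted p = 0.0185 and 0.0195) and H2-DMa (0.0162) were called lower. In that fit calls rose over the whole array, to 3213 probes higher and 3781 lower, beside 0 and 5 member probes. Enalapril 4 had the highest level of its group at 13 of 15 class II probes, 16 of 25 non-classical, 4 of 4 classical and 4 of 7 processing probes. The median deviation of the class II probes from their means over all arrays was 0.14 on enalapril 4, and -0.19, -0.13 and -0.15 on enalapril 1 to 3, against 0.02, 0.06, 0.19 and 0.07 on vehicle 1 to 4.

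**Figure D3:**
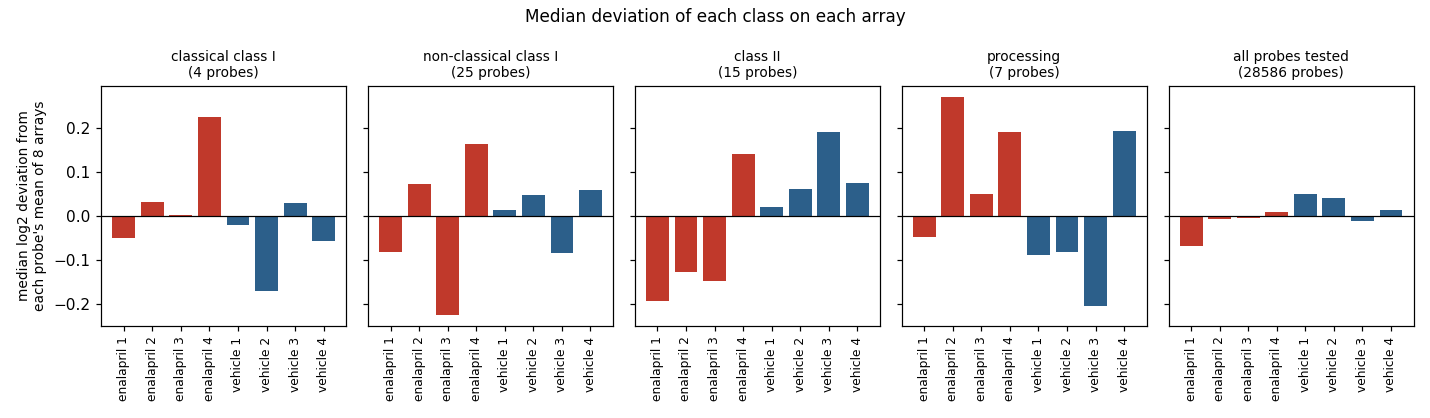
Median, over the tested probes of each class, of the log2 deviation of a level from that probe's mean over 8 arrays, for each enalapril array (red) and vehicle array (blue). Class II probes lie below 0 on enalapril 1 to 3, and above 0 on enalapril 4 (0.14) and on all 4 vehicle arrays.

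No probe carried the name Ciita, the transactivator of class II genes. The probe A_52_P109941 under its older name C2ta had levels of 1.41, 1.17, 0.93 and -0.70 in enalapril skin, against 0.90, 0.91, 1.18 and 0.62 in vehicle skin. Enalapril 4 was far below the other 7 arrays here, where it was the highest of its group for most class II genes, and the change was -0.20 ± 0.42 (limma adjusted p = 0.787).

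The processing genes had a median change of 0.13, from -0.17 to 0.51 over 7 probes, and none was called. The median turned to -0.062 with normexp background correction and to -0.23 with the deposited unscaled log2 values. Tap1, a subunit of the peptide transporter, had levels of 1.24, 1.55, 1.33 and 1.97 in enalapril skin, against 1.02, 1.24, 1.05 and 0.87 in vehicle skin. Enalapril 1 lay just below vehicle 2, and the change of 0.48 ± 0.17 did not pass (limma adjusted p = 0.105). Tap2, the other subunit, had levels of 1.31, 1.92, 1.78 and 1.69 in enalapril skin, against 1.53, 1.52, 1.49 and 1.64 in vehicle skin. The change was 0.13 ± 0.14 (limma adjusted p = 0.563), with enalapril 1 the lowest of the 8 arrays.

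B2m, the light chain of class I molecules, had levels of 6.37, 6.29, 6.10 and 6.53 in enalapril skin, against 6.40, 6.26, 6.12 and 6.67 in vehicle skin (A_51_P129012). The groups were nearly superimposed, with a change of -0.04 ± 0.15 (limma adjusted p = 0.89). The other B2m probes changed by 0.40 ± 0.17 and -0.15 ± 0.24, so that the 3 probes did not share a direction. Tapbp, which encodes tapasin, had levels of 4.27, 4.47, 4.33 and 4.51 in enalapril skin, against 4.49, 4.62, 4.48 and 4.67 in vehicle skin (A_51_P304500). These groups overlapped at a change of -0.17 ± 0.10 (limma adjusted p = 0.29), whereas the other Tapbp probe changed by 0.51 ± 0.17 (limma adjusted p = 0.0879).

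Of 13 member genes with several tested probes, 7 had probes on both sides of 0: H2-DMb2, H2-Bl, H2-Q1, H2-Q10, H2-T22, B2m and Tapbp. The probes of a gene were a median of 0.28 apart in change, and at most 0.92 (H2-Bl). H2-K1, H2-Q7, H2-Ab1 and B2m each had a probe printed as 10 spots per array. The SD over the spots of 1 array was 0.02 to 0.04 for H2-Ab1, against 0.20 between enalapril mice and 0.21 between vehicle mice. For B2m it was 0.06 to 0.14, against 0.13 between enalapril mice and 0.34 between vehicle mice.

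**Figure D4:**
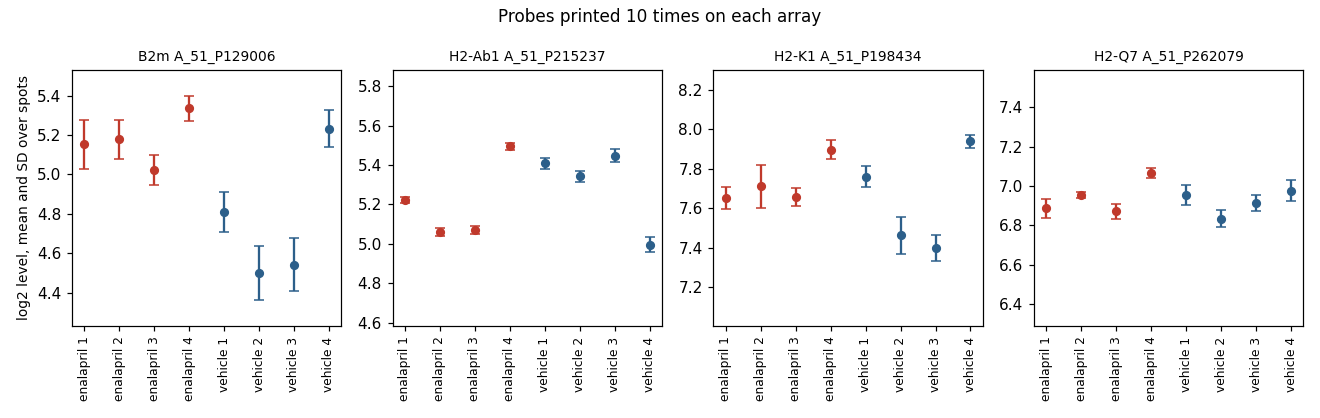
Levels of the 4 member probes printed as 10 spots on every array, as the mean and SD over the spots of 1 array, for enalapril arrays (red) and vehicle arrays (blue). For H2-Ab1, the SD between mice (0.20 in enalapril skin, 0.21 in vehicle skin) is above the SD over the spots of any array (at most 0.04). Single arrays can still lie close, as enalapril 2 and 3 do (5.06 and 5.07), and vehicle 4 lies lowest.

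H2-Ke6 encodes a 17-beta-hydroxysteroid dehydrogenase, and its gene lies in the complex near H2-K1. Its levels were 0.13, 0.42, 0.46 and 0.61 in enalapril skin, against 0.93, 0.97, 0.90 and 0.89 in vehicle skin. All 4 enalapril values lay below the 4 vehicle values, which were close to each other (SD 0.20 in enalapril skin and 0.03 in vehicle skin). The change was -0.52 ± 0.12 (limma adjusted p = 0.0327), a fold of 0.70. It stayed between -0.59 and -0.43 with any 1 array left out, but was called only without enalapril 4, with limma adjusted p-values up to 0.0852 in those fits. It was also not called with normexp background correction (limma adjusted p = 0.413), with no filter on dim probes (0.0601) or with the deposited unscaled values (0.0781). H2-Ke2, a prefoldin subunit, changed by -0.09 ± 0.11 (limma adjusted p = 0.636).

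Genes that act before and beside the members were read from 4 lists, each gene at its brightest tested probe. Of all probes tested 10.4% were called, 3.82% higher and 6.61% lower, with several probes for some genes. With 1 probe per gene over the whole array, 828 of 19141 probes were higher and 1877 lower. With 6 to 17 genes a list, single calls say nothing particular about a list. Of 9 tested genes of peptide supply and loading, 1 was higher and none lower: Calr, the chaperone calreticulin (0.44 ± 0.11, limma adjusted p = 0.0397). The immunoproteasome subunits Psmb8, Psmb9 and Psmb10 changed by -0.29, -0.35 and -0.27, none called. Of 9 genes of the class II endosome and its regulators, Marchf8, a ubiquitin ligase whose targets include class II molecules, was lower (-0.37 ± 0.10, limma adjusted p = 0.0487). The cathepsin Ctss changed by -0.03 ± 0.24 and Ifi30, a lysosomal thiol reductase, by -0.22 ± 0.11. In the whole endosome list 7 genes had changes below 0 and 2 above, with a median of -0.19, and 2 had an unadjusted p under 0.05 by limma. Of 6 class I relatives outside the complex, Procr, the endothelial protein C receptor, was lower (-0.54 ± 0.13, limma adjusted p = 0.0366). None of 17 genes of the interferon-gamma pathway and response passed the test of limma, and 2 had an unadjusted p under 0.05; the smallest p was that of Jak1 (0.38 ± 0.12, limma adjusted p = 0.0833), and Cxcl9 changed by -0.13 ± 0.32.

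Cell type markers were read in the same way, beside these values and against the same shares. In whole skin, fewer cells of a type and less RNA per cell cannot be told apart. Of 8 dendritic and Langerhans cell markers 1 was lower, Batf3 (-0.46 ± 0.11, limma adjusted p = 0.0365), while Cd207, the langerin of Langerhans cells, changed by -0.10 ± 0.12; 5 of the 8 had changes above 0, and their median was 0.13. Of 6 B cell markers 1 was lower, Cd79b (-0.65 ± 0.14, limma adjusted p = 0.032). In this list 3 markers had an unadjusted p under 0.05 by limma, and 5 had changes below 0 and 1 above, with a median of -0.47. Of 8 macrophage and 6 T cell markers none passed the test of limma (3 and 1 at an unadjusted p under 0.05); the smallest p-values were those of Fcgr1 (-0.56 ± 0.17, limma adjusted p = 0.0687) and Cd3d (-0.47 ± 0.17, limma adjusted p = 0.113). Mrc1, the macrophage mannose receptor and 1 of the 3, had a change in the other direction (0.38 ± 0.16, limma adjusted p = 0.148). The summed linear level of the dendritic and Langerhans markers was 22.2 to 23.1 times the 75th percentile in enalapril skin, against 21.4 to 24.3 in vehicle skin, and that of the macrophage markers 54.3 to 73.8, against 68.1 to 72.8. No marker in these lists was below background on every array.

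The keratinocyte and dermal fibroblast markers, the defining cells of skin, had no gene called by limma among 6 and 5 (0 at an unadjusted p under 0.05 as well); the smallest p-values were those of Ivl (0.85 ± 0.38, limma adjusted p = 0.176) and Pdgfra (0.26 ± 0.15, limma adjusted p = 0.281). Of the markers of the tissue under the skin, 4 of 8 skeletal muscle markers were called lower in enalapril skin (Mylpf, Tnnt3, Tnnc2 and Pvalb, by -0.69 to -0.90). So were 4 of 7 adipocyte markers (Slc2a4, Pck1, Cidec and Adipoq, by -0.44 to -0.77). Of the muscle markers 1 had a change above 0, Myh4 (0.22 ± 0.37, not called), and of the adipocyte markers 0 did. The summed linear levels of the whole muscle list were 457.6 to 523.1 in enalapril skin against 550.7 to 790.5 in vehicle skin. Those of the whole adipocyte list were 129.1 to 177.7 against 175.3 to 235.3. The part of these cells in the member values was not tested.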

How the data were processed

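Each of 8 1-colour (Cy3) Agilent arrays measured dorsal skin RNA of 1 mouse. Per the file headers, the deposited scanner files hold intensity on a linear scale from Agilent Feature Extraction 9.1.3.1 (9.1 per the submitters' processing notes), background-subtracted and detrended within each array and not scaled between arrays. The deposited flags, other values of 0 or 1, served as filters. The deposited log2 values equal log2 of that processed intensity with no centring (medians 6.39 to 7.30).

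Spots flagged as outliers were removed, spots of a probe averaged, and 47 of 41174 probes left out because all their spots were flagged on an array. The 75th percentile was taken over non-control spots. Files were read with data.table (version 1.17.8) in R 4.3.3. A model with limma (3.58.1) fitted the group alone, two-sided, with Benjamini-Hochberg adjustment over 28586 probes; the number of arrays limits the precision. The fit was tested on simulated data. Lists were named through RefSeq symbols of GRCm38.p6.

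The members and lists were chosen with earlier results of these data known. All member genes are named; array values are given for probes called or not overlapping and for the brightest probe of the main genes, and listed genes are those past the test (at most 4) or with the smallest p; Psmb8, Psmb9, Psmb10, Ctss, Ifi30, Cxcl9, Cd207 and Mrc1 were chosen after their values were seen. Alternatives were normexp (offset 50), quantile and median scaling, the deposited log2 values, other filters, 1 probe per gene, an intensity trend, array weights, a replicate block, left-out arrays and an adjusted p under 0.10. A normexp with local backgrounds above 5 times the array median set to that median was chosen after seeing the data.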

Additional observations from a re-analysis of the deposited data

Results flagged for a closer look

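In 158 groups of 4 arrays (the tested member probes and the listed genes named), 6 held an array far from the other 3; chance flags about 1 in 20 groups. For H2-DMa, enalapril 4 had a level of 1.54, against 1.11 to 1.17 on the other enalapril arrays. For the H2-Ab1 probe A_51_P215242, vehicle 4 had 3.22, against 3.70 to 3.76 on the other vehicle arrays. For the H2-K1 probe A_52_P50496, vehicle 3 had 4.91, against 4.57 to 4.61. For the H2-Q10 probe A_51_P496997, vehicle 2 had 6.79, against 6.93 to 6.94. Among the adipocyte markers, enalapril 4 had 4.78 for Cidec, against 4.14 to 4.17 on the other enalapril arrays, and vehicle 4 had 4.21 for Adipoq, against 4.00 to 4.02 on the other vehicle arrays.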

How the results depend on the processing

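With 4 arrays per group the median SE of a member's change was 0.14, and the number of arrays limits the precision; the direction of the dim probe H2-M9 turned with the background treatment. Slide and scan as a block could not be fitted, since each held 1 group. Counts over all probes moved, against 1091 higher and 1890 lower. Normexp gave 0 and 0 with limma (3144 probes at an unadjusted p under 0.05), repaired normexp 702 and 1170, quantile normalization 978 and 1121, median centring 672 and 1321, the deposited unscaled log2 values 77 and 1473, no filter 504 and 888, array weights 3598 and 4938, and an adjusted p under 0.10 gave 2099 and 3428. Against 0 member probes higher and 1 lower, quantile normalization called 4 higher (B2m A_51_P129006, Cd74, H2-Q10 A_52_P428354 and H2-Q1 A_52_P582814), array weights 4 higher and 7 lower, and an adjusted p under 0.10 gave 3 and 6. Member probes lower were 2 with either stricter filter and with 1 probe per gene (H2-Ke6 and H2-M9), and 0 with normexp, no filter or the replicate block (3, 14 and 11 members at an unadjusted p under 0.05). With the deposited unscaled values the 1 lower member was H2-M9 in place of H2-Ke6. Medians against 0.09 (classical), -0.02 (non-classical), -0.10 (class II) and 0.13 (processing) were -0.11 (classical), -0.25 (class II) and -0.062 (processing) with normexp, where all probes had 0.27. They were 0.28, 0.17 and 0.064 for the first 3 classes with quantile normalization, where all probes had -0.004. With the deposited unscaled values they were -0.27, -0.39, -0.46 and -0.23, where all probes had -0.41. The cause of these moves was not tested. With each array left out in turn, 162 to 3213 probes were higher and 203 to 3781 lower, the highest both without enalapril 4, and 0 to 5 member probes were lower, none without any of the other 7 arrays (9 to 13 at an unadjusted p under 0.05 by limma). The replicate block called 30 higher and 8 lower probes; replicate numbers name no shared source, and same-numbered arrays correlated at -0.13, 0.08, 0.17 and 0.03, not all best with their own number. Of 313 refits of the 15 probes with array values, 286 kept their side of the threshold, 11 lost a call (all H2-Ke6), 16 gained one, and 19 turned the sign of a change not called in either fit.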

Other observations

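The descriptions of 12 further probes name an MHC molecule or a similarity to one, while their gene names lie outside the naming rule. For 2600005N12Rik and AK047526 the description gives a weak similarity only. All 12 were chosen after their values were seen. Of these, 10 were tested and 3 were called higher in enalapril skin, with none lower, against 3.82% of all probes called higher and 6.61% lower; since the 12 were chosen with values known, the count supports nothing about them. LOC676708 had levels of -2.23, -1.95, -2.05 and -1.86 in enalapril skin, against -2.68, -2.76, -2.59 and -2.55 in vehicle skin (change 0.62 ± 0.11, limma adjusted p = 0.0195). AK087429 had levels of -4.25, -3.67, -3.36 and -3.35 in enalapril skin, against -4.71, -4.63, -4.58 and -4.94 in vehicle skin (change 1.06 ± 0.20, limma adjusted p = 0.0225). AK047526 averaged -4.73 ± 0.29 in enalapril skin and -6.60 ± 0.87 in vehicle skin (SD, n = 4 each). It was well above background on 4 enalapril arrays and 1 vehicle array, so it met the filter mainly through the group where it was high, and its call is not used as a result. The groups of LOC676708 and of AK087429 did not overlap, as was so for 20.2% of all probes. The changes of these probes under the other settings, background treatments included, were not examined. The bright probes among the 12, LOC630499 and 2 named by transcript only, ENSMUST00000087244 and ENSMUST00000077662, changed by 0.08 ± 0.10, 0.04 ± 0.09 and 0.09 ± 0.11, and none was called.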
